A study of Rattus norvegicus with 47 samples.

Results

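The matrix metalloproteinases (Mmp), the ADAMTS proteases, the ADAMTS-like proteins and the tissue inhibitors of metalloproteinases (Timp) were followed in rat lung and blood after inhaled silica. Members were all rows of the 4 deposited count tables whose gene name was Mmp followed by digits, Timp followed by a digit, or began with Adamts. The neutrophil collagenase Mmp8 was left out by that rule. This gave 50 of 30045 rows, with 23 Mmp, 4 Timp, 18 ADAMTS and 5 ADAMTS-like rows. They carry 49 names, because Mmp17 stands on 2 rows that can share reads; the better covered row is meant below. Adamts13 was not analysed here.

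Healthy male Fischer 344 rats, an inbred strain, weighed 250 to 300 g and breathed either filtered air or the crystalline silica dust Min-U-Sil 5. The silica groups received 15 mg/m3 in whole-body chambers, 6 h a day on 5 days. Lung and blood were taken 1 day or 6 months after exposure. Lung libraries numbered 6 air and 6 silica at 1 day and 5 air and 6 silica at 6 months, and each of the 4 blood groups held 6.

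Metalloproteinases are zinc-dependent enzymes that are made as inactive precursors and cut collagens, elastin, proteoglycans and many signalling proteins once activated. The Timp proteins bind their active sites, and Timp3 also inhibits ADAMTS enzymes. ADAMTS-like proteins share the ancillary domains of the ADAMTS family but lack the protease. In lung, macrophages, neutrophils, fibroblasts and epithelial cells make different members, and the balance between enzymes and inhibitors is studied in emphysema and fibrosis.

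Within the family, 9 member genes form a row on rat chromosome 8, in the order Mmp13, Mmp12, Mmp1b, Mmp3, Mmp1, Mmp10, Mmp27, Mmp20 and Mmp7. Only members are listed, without Mmp8, so other genes can stand between them. Of these 9, Mmp12 alone had enough counts to be tested in lung. The stretch of 130 bases before the RefSeq start site (build GRCr8, plus strand) is shown for Mmp12 and Mmp7, whose silica lungs all lay above the air lungs at 6 months, and for Mmp3, a neighbour with at most 2 counts in any lung library. Capitals mark the AP-1 element TGAGTCA and the TATA box TATAAA. The Mmp12 stretch is chr8:12866522-12866651, that of Mmp7 is chr8:13132913-13133042 and that of Mmp3 is chr8:12925151-12925280.
Mmp12: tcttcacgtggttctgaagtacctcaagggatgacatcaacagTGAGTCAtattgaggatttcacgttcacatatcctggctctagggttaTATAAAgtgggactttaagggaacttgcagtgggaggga
Mmp7: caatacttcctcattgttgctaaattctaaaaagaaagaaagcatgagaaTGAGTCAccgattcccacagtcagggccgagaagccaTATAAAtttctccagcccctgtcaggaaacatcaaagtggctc
Mmp3: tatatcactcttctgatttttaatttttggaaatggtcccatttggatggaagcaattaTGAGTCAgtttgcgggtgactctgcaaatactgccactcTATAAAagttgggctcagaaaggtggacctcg

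Both motifs were searched on both strands (TGAGTCA or TGACTCA, and TATAAA or TTTATA) in the 250 bases before each start. RefSeq windows were matched for 38 member genes, with 42 windows in all. Those without a window, and so not searched, were Mmp2, Mmp9, Mmp14, Mmp16, Mmp17, Mmp19, Adamts5, Adamts8, Adamts15, Adamts16 and Adamts19. The AP-1 letters stood in 6 of the 42 windows, those of Mmp1, Mmp3, Mmp7, Mmp10, Mmp12 and Mmp13, which is 14.3%, against 4.05% of all 33469 windows. The TATA letters stood in 31.0% of member windows and in 12.9% of all windows. All 6 windows with the AP-1 letters also held the TATA letters. The pair thus stood in 14.3% of member windows and in 0.574% of all windows. Of all 1354 windows with the AP-1 letters, 192 held the pair. The 6 genes all belong to the chromosome 8 row, so their windows cannot be taken as independent. These are matches of letters, and the 3 printed stretches share both although their genes had very different counts in lung.

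Total counts ran from 9643524 to 25875975 per library. Levels are counts-per-million (CPM) after TMM scaling within each table. Fold changes are log2 values of silica over air ± SE from edgeR's quasi-likelihood test, with p-values adjusted over all genes tested in that table and a threshold of 0.05. In bulk tissue, fewer cells of a type and less RNA per cell cannot be told apart. Chamber and cage are not given in the labels, so treatment and chamber cannot be told apart, and p-values measure the spread between animals.

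At 1 day, Mmp12 and Adamts4 rose in silica lung, Timp1 rose slightly, and Timp2, Adamtsl4 and Adamtsl5 fell by small amounts. Thus 6 of the 37 members tested in lung at 1 day passed the threshold, 3 higher and 3 lower, a share of 16.2%. Over all genes tested 14.1% passed, 8.39% higher and 5.72% lower, so the members' share was near that of the table. The median log2 fold change was -0.03 over the members and -0.00 over all genes.

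Mmp12, the macrophage elastase, which degrades elastin and is made mainly by macrophages, showed the widest separation. In air lungs at 1 day the 6 animals had 15.2, 18.9, 4.21, 9.07, 13.3 and 9.20 CPM. In silica lungs the values were 26.6, 33.7, 31.1, 25.2, 29.6 and 29.1 CPM. Every silica lung lay above every air lung, and the air values were spread over a wider relative range than the silica values. The means were 11.6 ± 5.20 (SD, n = 6) and 29.2 ± 3.03 CPM (SD, n = 6), a log2 fold change of 1.32 ± 0.23 (edgeR adjusted p = 0.00158).

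The 2 gelatinases gave smaller differences at 1 day that did not pass the test. Mmp9, the gelatinase stored in neutrophil granules, had a mean of 3.97 ± 1.35 CPM in air and 5.29 ± 1.89 CPM in silica (SD, n = 6 each; edgeR adjusted p = 0.384). Mmp2, the gelatinase of stromal cells, stood at 227 ± 25.3 CPM in air and 207 ± 15.9 CPM in silica (edgeR adjusted p = 0.260). For both genes the groups overlapped.

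The epithelial matrilysin Mmp7 and the collagenases and stromelysins of the same chromosome row were near the counting floor. Mmp7 ran from 0.076 to 0.324 CPM in air and from 0.254 to 0.537 CPM in silica at 1 day, with at most 7 counts in a library, and was filtered out. Mmp13, a collagenase, reached at most 9 counts in a lung library at 1 day. Mmp3 and Mmp10, which are stromelysins, had at most 1 count, and Mmp1 and Mmp1b had 0 in every lung library at that time. A floor of 3 counts corresponds to 0.116 to 0.248 CPM in these lung libraries, so values below that floor are imprecise.

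None of the 6 membrane-anchored Mmp genes tested at 1 day passed the threshold. Mmp14, the membrane collagenase that also activates the Mmp2 precursor, had means of 88.1 ± 13.6 CPM in air and 97.0 ± 7.94 CPM in silica (SD, n = 6 each; edgeR adjusted p = 0.345). Mmp25, a membrane-anchored enzyme of neutrophils, had 0.957 ± 0.221 and 1.61 ± 0.622 CPM (SD, n = 6 each), with a log2 difference of 0.75 ± 0.26 (edgeR adjusted p = 0.0708).

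Among the inhibitors at 1 day, Timp1 and Timp2 moved in opposite directions. Timp1, an inhibitor induced in inflammation, ran from 31.4 to 39.2 CPM in air with a median of 36.5, and from 37.3 to 47.2 CPM in silica with a median of 41.7. The groups overlapped, and the log2 fold change was 0.22 ± 0.06 (edgeR adjusted p = 0.0331). That call was lost on leaving out any one of air animals 40, 41 and 42 or silica animals 43, 44, 45 and 46, with log2 values from 0.18 to 0.25 over all 12 omissions.

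Timp2, which both inhibits Mmp2 and helps to present its precursor to Mmp14, ran from 357 to 376 CPM in air (median 367) and from 328 to 354 CPM in silica (median 337). All 6 silica lungs lay below all 6 air lungs, a fall of 0.12 ± 0.03 on the log2 scale (edgeR adjusted p = 0.00952). Groups that do not overlap were seen in 5.04% of all genes tested with silica above air and in 2.75% with silica below. Among the 37 members they were seen for 1 above, Mmp12, and 3 below, Timp2, Adamtsl4 and Adamtsl5.

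Timp3, the matrix-bound inhibitor, had means of 1159 ± 83.6 CPM in air and 1144 ± 32.4 CPM in silica at 1 day (SD, n = 6 each; edgeR adjusted p = 0.841). Timp4 had means of 1.35 ± 0.401 and 1.07 ± 0.374 CPM (SD, n = 6 each; edgeR adjusted p = 0.460). Neither difference exceeded the spread between animals.

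Of the 6 proteoglycan-degrading ADAMTS genes tested, Adamts4 rose at 1 day. This aggrecanase, which cuts aggrecan and versican, had 1.06, 1.36, 1.16, 1.75, 1.19 and 1.16 CPM in the air lungs. The silica lungs had 2.73, 2.63, 2.24, 2.73, 2.12 and 1.53 CPM. One silica animal, number 48, lay below the highest air animal, number 40, and the other silica lungs lay above all air lungs. The log2 fold change was 0.87 ± 0.18 (edgeR adjusted p = 0.00384), from at most 43 counts in a library. Adamts1, which cuts versican, and Adamts5, the other main aggrecanase, had log2 differences of -0.10 ± 0.11 and 0.08 ± 0.12 (edgeR adjusted p = 0.626 and 0.713).

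The 3 procollagen-processing enzymes tested, Adamts2, Adamts3 and Adamts14, did not pass at 1 day, with log2 differences between -0.14 and 0.03. Neither did any of the other 6 ADAMTS genes tested, whose log2 differences ran from -0.23 for Adamts17 to 0.16 for Adamts7. Of the 5 ADAMTS-like genes, 2 fell. Adamtsl4, which binds fibrillin microfibrils, ran from 59.0 to 68.6 CPM in air (median 63.05) and from 44.4 to 54.9 CPM in silica (median 51.6). Adamtsl5 ran from 17.9 to 20.2 CPM in air (median 18.6) and from 11.9 to 16.2 CPM in silica (median 14.4). Neither pair of groups overlapped. The falls were 0.32 ± 0.05 for Adamtsl4 and 0.41 ± 0.07 for Adamtsl5 on the log2 scale (edgeR adjusted p = 0.00118 and 0.00104).

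**Figure D1:**
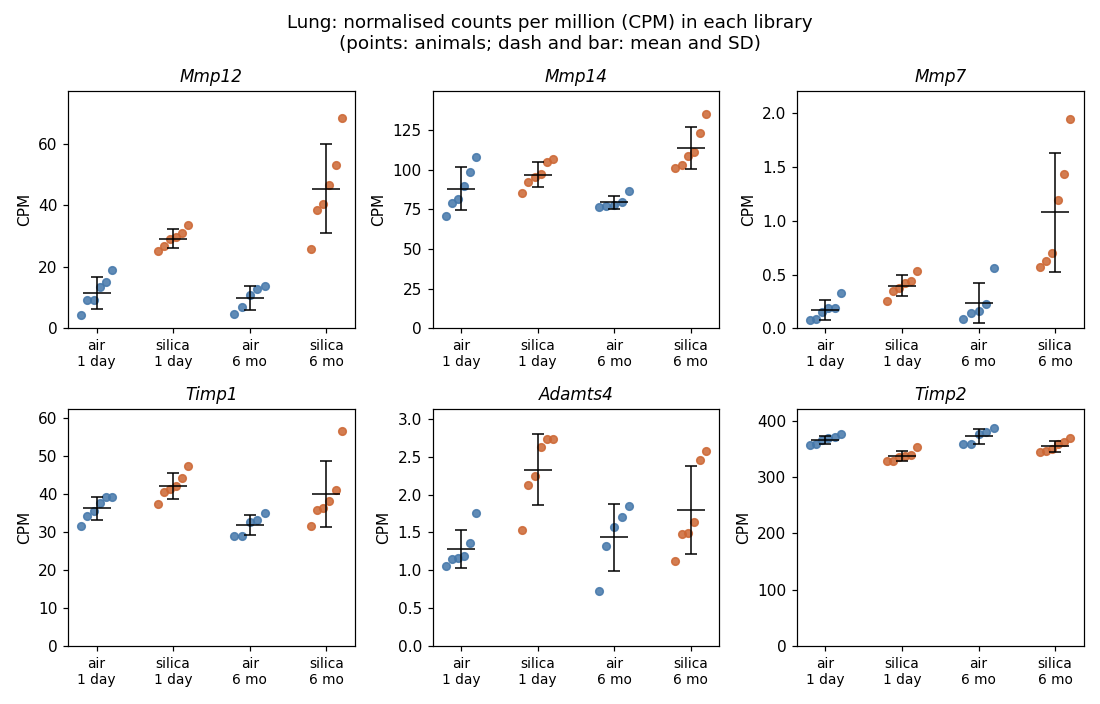
Normalised counts-per-million (CPM, y axis, from 0) of Mmp12, Mmp14, Mmp7, Timp1, Adamts4 and Timp2 in each lung library by group (x axis), with points for animals and the mean and SD in black. Silica lungs sit above all air lungs for Mmp12 at both times and for Mmp14 and Mmp7 at 6 months, and Timp2 at 1 day sits below.

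At 6 months, Mmp12 and Mmp14 rose and 4 members fell by small amounts, namely Mmp16, Mmp17, Adamtsl4 and Adamts1. The 6 calls among 36 members tested are 16.7%, beside 16.2% of all genes tested at 6 months (9.84% higher and 6.38% lower). The median log2 fold change was -0.04 over the members and -0.01 over all genes. Mmp12 and Mmp14 did not overlap between groups with silica above, as for 6.96% of all genes, and Mmp16 and Mmp17 did not overlap with silica below, as for 3.5%.

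Mmp12 had 6.93, 12.7, 10.7, 4.57 and 13.7 CPM in the 5 air lungs at 6 months. The 6 silica lungs had 68.3, 46.6, 53.2, 38.5, 40.5 and 25.98 CPM. The 2 groups did not overlap, and animal 58 was the highest and animal 64 the lowest of the silica group. The means were 9.74 ± 3.88 (SD, n = 5) and 45.5 ± 14.4 CPM (SD, n = 6), a log2 fold change of 2.23 ± 0.28 (edgeR adjusted p = 0.000322). Without any one animal the log2 fold change ran from 2.05 to 2.39, and it stayed past the threshold in each of those 11 fits.

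Mmp14 had 76.6, 86.5, 79.4, 77.2 and 78.0 CPM in air lungs at 6 months. In silica lungs it ran from 101 to 135 CPM with a median of 110. The groups did not overlap, and the log2 fold change was 0.52 ± 0.07 (edgeR adjusted p = 0.000635). The enzyme it activates, Mmp2, had 157, 187, 161, 186 and 158 CPM in air and ran from 170 to 217 CPM in silica (median 199). The Mmp2 groups overlapped, and the log2 difference of 0.20 ± 0.07 did not pass (edgeR adjusted p = 0.0758). It did pass with DESeq2 (adjusted p = 0.0415) and, with edgeR, without silica animal 62 (adjusted p = 0.0372).

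Mmp7 stayed below the filter at 6 months yet separated the groups. The air lungs had 0.144, 0.162, 0.083, 0.225 and 0.565 CPM, from 1 to 7 counts, and the silica lungs ran from 0.567 to 1.95 CPM, from 9 to 28 counts. The lowest silica value was just above the highest air value. When the filter on low counts was left out, the log2 fold change was 2.16 ± 0.48 with an edgeR adjusted p = 0.0103, and 1.14 ± 0.36 at 1 day with an edgeR adjusted p = 0.0607. The other genes of that chromosome row except Mmp12 had at most 7 counts in any lung library at 6 months.

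The 2 membrane-anchored genes that fell at 6 months were Mmp16, an activator of the Mmp2 precursor, and Mmp17, which is held by a lipid anchor. Mmp16 had 33.8, 30.0, 30.0, 33.3 and 29.7 CPM in air and ran from 24.7 to 28.1 CPM in silica (median 27.0). Its fall was 0.24 ± 0.05 on the log2 scale (edgeR adjusted p = 0.00816). Mmp17 had 14.9, 14.1, 14.8, 11.9 and 12.0 CPM in air and ran from 9.57 to 11.9 CPM in silica (median 10.97), a fall of 0.33 ± 0.09 (edgeR adjusted p = 0.0237). The Mmp17 call was lost without air animal 49, 51 or 52, with adjusted p-values up to 0.0597. Mmp9, with means of 7.28 ± 1.52 CPM (SD, n = 5) in air and 6.82 ± 0.521 CPM (SD, n = 6) in silica, did not pass at 6 months (edgeR adjusted p = 0.668).

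No Timp gene passed at 6 months with edgeR. Timp1 had 28.9, 32.7, 33.1, 35.0 and 29.0 CPM in air and ran from 31.6 to 56.3 CPM in silica (median 37.2), with animal 58 the highest. Its log2 difference was 0.33 ± 0.12 (edgeR adjusted p = 0.0920), and it passed without silica animal 64 (0.38, edgeR adjusted p = 0.0440), with DESeq2 (adjusted p = 0.0469) and with all 4 lung groups in one edgeR fit (adjusted p = 0.0328). The log2 differences of Timp2, Timp3 and Timp4 were -0.07 ± 0.03, -0.10 ± 0.07 and -0.25 ± 0.24 (edgeR adjusted p = 0.176, 0.370 and 0.511).

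Of the ADAMTS genes, Adamts1 fell at 6 months, from 63.2 ± 9.24 (SD, n = 5) to 52.0 ± 4.03 CPM (SD, n = 6) with overlapping groups. Its fall of 0.28 ± 0.09 on the log2 scale (edgeR adjusted p = 0.0460) kept its call in only 2 of the 11 fits that leave out an animal, those without air animal 53 or silica animal 62; in the other 9 the adjusted p reached 0.107. Adamts4 ran from 0.722 to 1.86 CPM in air and from 1.12 to 2.57 CPM in silica (edgeR adjusted p = 0.466). The log2 difference of Adamts5 was -0.27 ± 0.17 (edgeR adjusted p = 0.320). The 3 procollagen-processing enzymes and the other 5 ADAMTS genes tested did not pass.

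Adamtsl4 was the one member lower at both times. At 6 months it had 62.0, 61.3, 60.7, 55.6 and 63.3 CPM in air and ran from 49.8 to 58.0 CPM in silica (median 53.8), so the groups overlapped through air animal 53. The fall was 0.18 ± 0.05 on the log2 scale (edgeR adjusted p = 0.0230), and its call was lost without air animal 49 or 54 (adjusted p up to 0.0516). Adamtsl5, which fell at 1 day, ran from 15.7 to 19.6 CPM in air and from 14.6 to 19.1 CPM in silica at 6 months (edgeR adjusted p = 0.731).

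**Figure D2:**
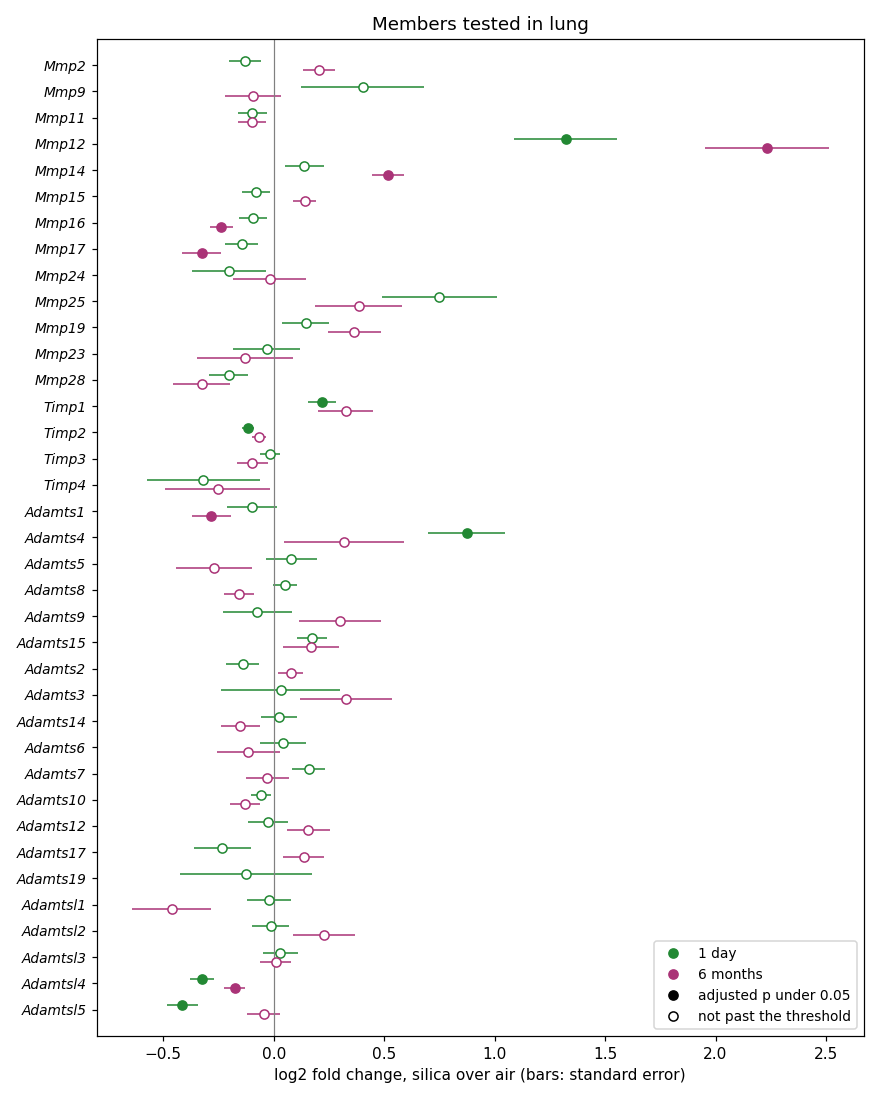
Log2 fold change of silica over air (x axis, bars are SE) of each member tested in lung (y axis, by role), at 1 day in green and 6 months in purple, with filled points past an adjusted p of 0.05. Mmp12 lies at 1.32 and 2.23, and most other members lie within 0.5 of 0 at both times.

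Of the 36 members tested at both times in lung, 10 passed at either time and 26 at neither. Mmp12 was higher at both, Adamtsl4 was lower at both, and 0 passed in opposite directions. The matching shares of all genes tested at both times were not counted, so these numbers are not set against the table. Whether the silica effect differed between times was tested directly as an interaction, and 0 of 37 members passed, beside 1.375% of all genes (9 members had an unadjusted p under 0.05). The smallest p was that of Adamtsl5, whose log2 fold change was higher by 0.37 ± 0.10 at 6 months (edgeR adjusted p = 0.0687), followed by Mmp2 with 0.34 ± 0.11 (edgeR adjusted p = 0.132). Mmp14, called at 6 months only, had a difference of 0.38 ± 0.12 (edgeR adjusted p = 0.132). Its rise was therefore not shown to be particular to 6 months. The larger fold of Mmp12 at 6 months, a difference of 0.92 ± 0.38, did not pass (edgeR adjusted p = 0.293), so its 2 fold changes were not shown to differ.

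Summed markers of some lung cell types also differed between air and silica lungs, and those of others did not. The summed CPM of 10 macrophage and monocyte markers ran from 1260 to 2079 in air and from 1479 to 1996 in silica lungs at 1 day (exact permutation test, two-sided, p = 0.776 adjusted over 52 tests), while 5 of the 9 tested rose, such as Itgax and Cd68, and 1, Csf1r, fell. At 6 months the sum ran from 1310 to 1718 in air and from 2030 to 2824 in silica (exact permutation test, adjusted p = 0.0113), with 7 of 9 higher and Csf1r lower. None of the 10 was at 0 in all lung libraries, but Marco had a mean under 1 CPM. Mmp12 separated the groups at both times, and the marker sum overlapped at 1 day but not at 6 months. Such a sum weighs its most abundant markers most, and whether Mmp12 followed macrophage number was not tested.

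The summed CPM of 9 neutrophil markers rose at both times, from 162 to 294 in air against 343 to 714 in silica at 1 day, and from 261 to 382 against 478 to 660 at 6 months (exact permutation test, adjusted p = 0.0113 at each). Single markers rose for 6 of 7 tested at 1 day and 4 of 8 at 6 months. Summed markers of endothelial cells and of alveolar type 1 cells were lower in silica lungs at both times, and those of alveolar type 2 cells were higher at 6 months (exact permutation test, adjusted p = 0.0113 for each). The 8 endothelial markers summed to 3339 to 3649 in air and 2980 to 3338 in silica at 1 day, and to 3308 to 3714 and 2672 to 3092 at 6 months, where 5 and 7 of the 8 fell. Of 6 alveolar type 1 markers tested, 5 fell at 1 day and 2 at 6 months, and 5 of 6 alveolar type 2 markers rose at 6 months. Sums of club and ciliated, erythroid and platelet markers were lower at 1 day (exact permutation test, adjusted p = 0.0260, 0.0113 and 0.0188). Single rows fell for 1 of 7 club and ciliated, 4 of 4 erythroid and 1 of 2 platelet markers tested, so the first of these sums rests on few markers. The sum of the fibroblast markers did not pass at either time (exact permutation test, adjusted p = 0.679 and 0.951), although 2 of its 9 rows fell and 0 rose at each time. Lum and Dcn are on this list and also among the matrix substrates below. The part of these cell types in the changes of Mmp12, Mmp14 or the members that fell was not tested.

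Genes of related lists were counted beside the 14.1% of all genes that passed at 1 day and the 16.2% at 6 months. Of 21 activators and inhibitors of metalloproteinases tested from a list of 25, 4 rose, 2 fell and 15 did not pass at 1 day, and 6 rose, 2 fell and 13 did not pass at 6 months. The list's median log2 changes were -0.02 and 0.02. Plau, the urokinase that generates plasmin, fell at both times, by 0.37 ± 0.04 and 0.25 ± 0.04 on the log2 scale, and its receptor Plaur rose by 0.30 ± 0.08 and 0.96 ± 0.14. These 4 changes had edgeR adjusted p-values from 6.36e-05 to 0.0284.

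Reck, a membrane-anchored inhibitor of several Mmp enzymes, fell by 0.18 ± 0.05 at 1 day and by 0.23 ± 0.04 at 6 months (edgeR adjusted p = 0.0176 and 0.00274). The epithelial serine protease St14 rose by 0.31 ± 0.05 and 0.33 ± 0.06 (edgeR adjusted p = 0.000758 and 0.00305). Lrp1, a receptor that clears protease complexes, rose by 0.22 ± 0.05 at 1 day (edgeR adjusted p = 0.0134).

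Some of the related ADAM genes encode proteases that shed membrane proteins. Of 12 ADAM genes tested, 2 rose at 1 day, a share near that of all genes (14.1%). At 6 months 2 rose and 1 fell (16.2% of all genes passed). The median log2 changes were 0.06 and -0.01. Adam9 rose at both times, by 0.20 ± 0.04 and 0.15 ± 0.04, and Adam11 rose at 1 day by 1.78 ± 0.25 from a mean of 0.623 ± 0.181 CPM (edgeR adjusted p = 0.00554, 0.0198 and 0.000326). At 6 months Adam17, which releases tumour necrosis factor, rose by 0.30 ± 0.06 and Adam15 fell by 0.16 ± 0.05 (edgeR adjusted p = 0.00541 and 0.0405).

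Of 10 lysosomal cathepsins and their inhibitors tested, 8 rose, 0 fell and 2 did not pass at 6 months, when 9.84% of all genes rose. The median log2 change was 0.50. At 1 day 2 rose and 1 fell, with a median of 0.04. Ctsh rose by 0.69 ± 0.09, Ctsz by 0.62 ± 0.09, Ctss by 0.56 ± 0.08 and the inhibitor Cstb by 0.47 ± 0.06 at 6 months, with edgeR adjusted p-values from 0.000249 to 0.000631. At 1 day Ctsh and Ctsz rose by 0.32 ± 0.06 and 0.31 ± 0.07 and Ctsd fell by 0.39 ± 0.10 (edgeR adjusted p = 0.00181, 0.00794 and 0.0180).

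Of 19 matrix substrates tested, 1 rose and 5 fell at 1 day and 1 rose and 3 fell at 6 months, beside 14.1% and 16.2% of all genes passing in either direction. The median log2 changes were -0.08 and -0.05. At 1 day fibronectin (Fn1) rose by 0.24 ± 0.05, while periostin (Postn), lumican (Lum) and elastin (Eln) fell by 0.15 ± 0.04, 0.41 ± 0.11 and 0.28 ± 0.07 on the log2 scale (edgeR adjusted p = 0.00251 to 0.0202). At 6 months tenascin C (Tnc) rose by 0.36 ± 0.11, and Lum, decorin (Dcn) and von Willebrand factor (Vwf) fell by 0.40 ± 0.10, 0.53 ± 0.13 and 0.21 ± 0.06 (edgeR adjusted p = 0.0144 to 0.0382).

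Of 14 cytokine inducers and transcription factors tested, 3 rose and 0 fell at 1 day and 2 rose and 1 fell at 6 months, with median log2 changes of 0.13 and -0.06 and the same shares of all genes beside them. The cytokines Il1b and Osm and the AP-1 subunit Fosl2 rose at 1 day by 1.17 ± 0.18, 1.45 ± 0.25 and 0.37 ± 0.08 (edgeR adjusted p = 0.00143 or lower for the cytokines and 0.00729 for Fosl2). At 6 months Osm and Runx1 rose by 0.81 ± 0.21 and 0.22 ± 0.07 and Ets1 fell by 0.29 ± 0.07 (edgeR adjusted p = 0.0124 to 0.0380). Junb at 1 day (0.66 ± 0.24) and Jun at 6 months (-0.34 ± 0.13) did not pass (edgeR adjusted p = 0.0867 and 0.103).

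Most member rows stood higher in air lung than in air blood. Each table was scaled separately, so levels set across tissues carry that limit. In air animals at 1 day, 34 of the 50 rows had every lung library above every blood library, 3 had every blood library above every lung library and 13 overlapped. At 6 months these numbers were 36, 3 and 11. A mean of at least 1 CPM was reached by 35 rows in lung and 12 in blood at 1 day. The same shares over all genes were not counted, so this order is not shown to be particular to the members. At 1 day 15331 genes were tested in lung and 12253 in blood.

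The 3 rows higher in air blood at 1 day were Mmp9, Mmp25 and Adamts3. Mmp9 had means of 42.1 ± 13.6 CPM in blood and 3.97 ± 1.35 CPM in lung (SD, n = 6 each). Mmp25 had 5.56 ± 0.843 and 0.957 ± 0.221 CPM, and Adamts3 had 3.37 ± 0.310 and 1.31 ± 0.476 CPM (SD, n = 6 each). By contrast Mmp2, at 227 ± 25.3 CPM in air lung, had 3 counts over the 6 air blood libraries together, as did Mmp12 and Mmp14. Adamts14 overlapped between the tissues at 1 day, with 18.7 ± 2.11 CPM in lung and 15.5 ± 2.98 CPM in blood.

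**Figure D3:**
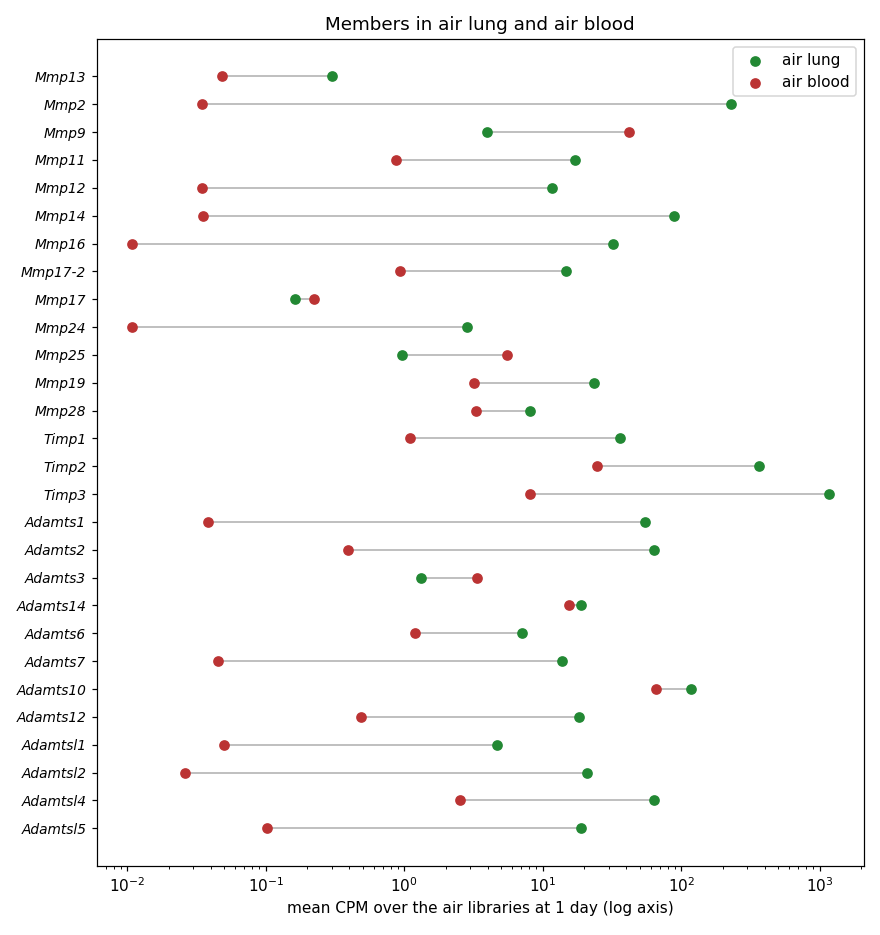
Mean CPM over the 6 air libraries at 1 day (x axis, log scale) in lung (green) and blood (red) for the 28 of 50 rows with a mean above 0 in both tissues (y axis, by role). Mmp9, Mmp25 and Adamts3 lie higher in blood with no overlap between libraries, and most other rows lie higher in lung.

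No member passed the test in blood at either time. At 1 day 14 members were tested and 0 passed with edgeR, DESeq2 or limma-voom, beside 1.371% of all genes in the edgeR fit (1.19% higher and 0.18% lower); 2 had an unadjusted p under 0.05. At 6 months 11 were tested and 0 passed with the same 3 tools, beside 0.0086% of all genes, and 1 had an unadjusted p under 0.05. No member's groups separated in blood: among all genes silica lay wholly above air for 1.51% and wholly below for 0.424% at 1 day, and for 0.267% and 0.112% at 6 months. The other members had too few counts, with 16 rows at 0 in every blood library at 1 day and 19 at 6 months.

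Mmp9 in blood ran from 21.5 to 55.8 CPM in air (median 46.7) and from 33.0 to 76.6 CPM in silica (median 64.6) at 1 day. At 6 months it ran from 36.4 to 95.02 CPM in air (median 67.4) and from 71.3 to 98.7 CPM in silica (median 84.5). The groups overlapped at both times, and the log2 differences were 0.52 ± 0.23 and 0.33 ± 0.16 (edgeR adjusted p = 0.352 and 0.574). In the same blood at 1 day, 9 neutrophil markers summed to 2435 to 2822 CPM in air and to 3660 to 4488 CPM in silica (exact permutation test, adjusted p = 0.0113). At 6 months the sums were 3427 to 4021 and 3579 to 5210 CPM (exact permutation test, adjusted p = 0.331). Of 8 single neutrophil markers tested in blood, 3 rose and 5 did not pass at 1 day, and 0 passed at 6 months.

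Mmp25 in blood had log2 differences of 0.09 ± 0.11 at 1 day and 0.45 ± 0.17 at 6 months, the latter the smallest p of a member at that time (edgeR adjusted p = 0.807 and 0.539). Mmp28, an enzyme of epithelia and some leukocytes, had the smallest p at 1 day, with means of 3.28 ± 0.550 CPM in air and 2.42 ± 0.451 CPM in silica (SD, n = 6 each). Its log2 difference was -0.44 ± 0.15 at 1 day (edgeR adjusted p = 0.221) and 0.27 ± 0.14 at 6 months (edgeR adjusted p = 0.589).

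The inhibitors in blood also stayed within their spread. Timp2 ran from 21.4 to 28.9 CPM in air and from 22.3 to 28.8 CPM in silica at 1 day, and from 25.8 to 28.9 and 25.8 to 29.2 CPM at 6 months (edgeR adjusted p = 0.547 and 0.900). Timp3 had log2 differences of -0.20 ± 0.18 and -0.17 ± 0.13 at the same times (edgeR adjusted p = 0.706 and 0.714). Timp1 had a log2 difference of 0.16 ± 0.26 at 1 day (edgeR adjusted p = 0.844) and was below the filter at 6 months. Mmp14 had at most 2 counts in a blood library.

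**Figure D4:**
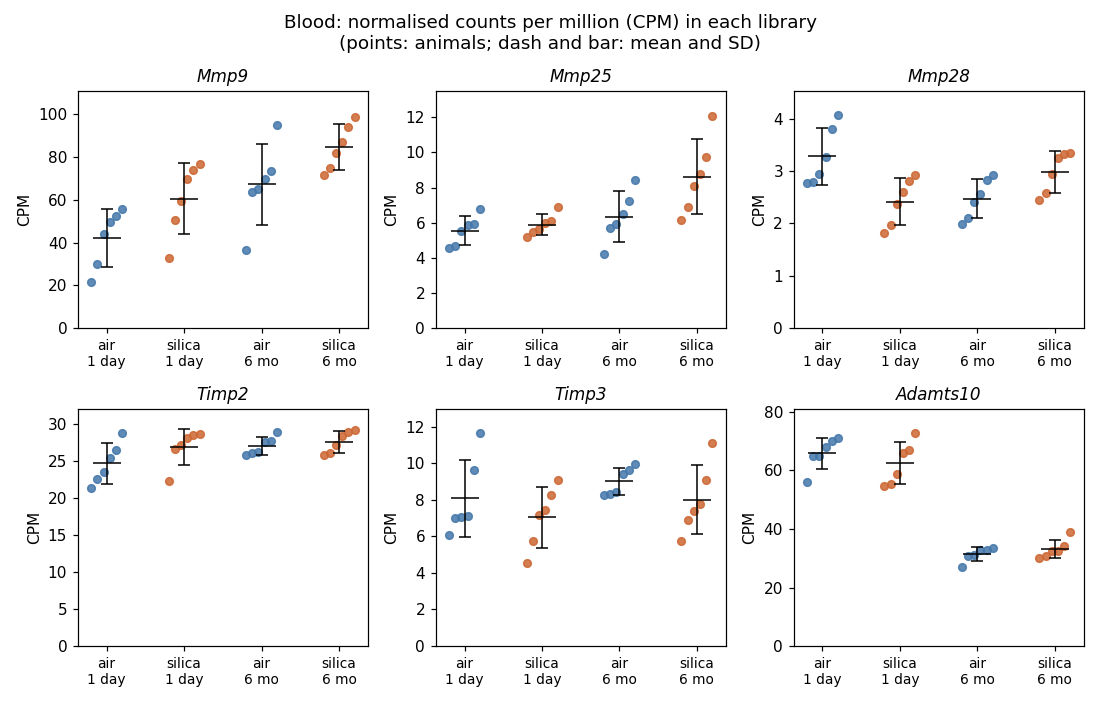
CPM (y axis, from 0) of Mmp9, Mmp25, Mmp28, Timp2, Timp3 and Adamts10 in each blood library by group (x axis), with points for animals and the mean and SD in black. The air and silica groups overlap for all 6 genes at both times.

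Differences of the silica effect between tissues and between blood times were tested as interactions. Between tissues, 37 members entered the fit at 1 day, but only 14 had enough blood counts to be tested in blood, and the others, at or near 0 there, could hardly pass. None of the 37 passed, so 0 of those 14, beside 4.03% of all genes in that fit. The smallest p was that of Timp2, whose fold was higher in blood than in lung by 0.29 ± 0.08 (edgeR adjusted p = 0.0523), followed by Mmp25 with -0.62 ± 0.27 (edgeR adjusted p = 0.216). DESeq2 and limma-voom placed Timp2 past the threshold (adjusted p = 0.00517 and 0.0405). At 6 months 36 members entered and 11 had enough blood counts. Again 0 passed, beside 3.53% of all genes in that fit, with Mmp28 at 0.62 ± 0.19 and Mmp19 at -0.63 ± 0.20 nearest to the threshold (edgeR adjusted p = 0.0736 and 0.0756). The unadjusted p was under 0.05 for 3 members at each time, of which Timp4 at 1 day had at most 1 count in a blood library.

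Between blood times 0 of 15 members passed, as did 0 of 12444 genes, and 1 member had an unadjusted p under 0.05. That was Mmp28, whose log2 fold was higher by 0.72 ± 0.20 at 6 months (edgeR adjusted p = 0.168), followed by Mmp25 with 0.37 ± 0.22 (edgeR adjusted p = 0.584).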

How the data were processed

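Lung RNA came from a kit for fibrous tissue and blood RNA was freed of globin transcripts before stranded mRNA libraries were made, per the labels' protocols. Tools named in the submitters' processing notes, without roles, are Salmon 1.10.1, STAR 2.6.1d, Trim Galore 0.6.7, bcl2fastq 2.19 and cutadapt 3.4, and the build is Rnor_6.0. The authors deposited 4 tables of expected counts per gene, not normalized, which were rounded here. Such estimates can split reads between similar genes. All columns matched a sample title, with 0 left over.

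Each whole table was fitted in edgeR 4.0.16 under R 4.3.3 with TMM scaling and the quasi-likelihood test. Genes were kept by filterByExpr (minimum count 10), and p-values were adjusted by Benjamini and Hochberg and called under 0.05. SE is the absolute log2 fold change over the root of F. Floors are 3 counts per library and cover counting error only. No pair of libraries of a group agreed within sampling noise (chi-square per degree of freedom 3.76 to 35.3 over 115 pairs). On simulated counts, genes changed by 0.25 on the log2 scale were recovered for 34% in lung at 1 day (15331 genes), 16% in lung at 6 months (15309), 16% in blood at 1 day (12253) and 8% in blood at 6 months (11629). Those changed by 1 were recovered for 90%, 82%, 80% and 94% in the same order. The simulated tables gave 132 to 151 calls each. The real fits gave 2163 and 2484 calls in lung and 168 and 1 in blood. Recovery after adjustment depends on how many genes change, so these shares do not give the power of the real fits.

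The members and lists were chosen with earlier results of these data known. Every member past the threshold was named, with fixed members of interest, the 2 smallest p-values of each interaction and the 4 of each pathway list in lung, except 1 list gene that is not reported here; 18 lists were used, 5 of pathways and 13 of markers. Alternatives were DESeq2 1.42.0, limma-voom (limma 3.58.1), other scalings and filters, a fit of all 4 groups of a tissue, and each library left out. Lung and blood titles share animal numbers, taken as the same animal, so the animal was a block in an alternative. Deviations from the group means of libraries with one number had correlations across genes between -0.0963 and 0.14 at 1 day and between -0.0905 and 0.093 at 6 months. Promoter letters came from RefSeq, GRCr8, and no coordinate was joined to the counts.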

Additional observations from a re-analysis of the deposited data

Results flagged for a closer look

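Of 78 groups tested, 2 held a library far from the others, and chance flags about 1 group in 20. Mmp14 in air lung at 6 months stood at 86.5 CPM in animal 51 and between 76.6 and 79.4 CPM in the other 4. Timp2 in silica blood at 1 day stood at 22.3 CPM in animal 43 and between 26.7 and 28.8 CPM in the other 5.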

How the results depend on the processing

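Mmp12 at both times and Mmp14 at 6 months kept their calls in all alternatives run. Higher members in lung at 6 months numbered 2 with edgeR, 5 with DESeq2 and 4 in the fit of all 4 groups; leaving out 1 library gave 2 to 4 higher and 1 to 4 lower (1 without air animal 49), and at 1 day 2 to 4 higher and 3 lower. Higher members in the interactions numbered 1 with DESeq2 between lung times, 1 with DESeq2 and 1 with limma-voom between tissues at 1 day, and 1 with DESeq2 (1 lower) between tissues at 6 months, against 0 with edgeR. Leaving out 1 library gave 0 to 1 higher in each of these 3 interactions. Timp3 at 1 day ran from -0.0354 to 0.0146 (without air animal 40) and Adamts1 from -0.165 to 0.0187 (without air animal 42), neither called. Among those gained at 6 months were Mmp2 (DESeq2), Timp1 and Mmp19 (each with DESeq2 and all 4 groups). The lower members Adamtsl1 and Mmp28 were gained with all 4 groups. Mmp19 also passed without air animal 51, silica animal 61 or silica animal 64. Timp1 at 1 day lost its call in the fit of all 4 groups, and Adamts1 at 6 months lost it there, with limma-voom and with no filter. The causes were not tested. With the animal as a replicate block, 0 members passed between tissues, so no call changed. The log2 differences were 0.29 for Timp2 and -0.57 for Mmp25 at 1 day. At 6 months they were 0.57 for Mmp28 and -0.50 for Mmp19. That fit held only animals with both tissues, 12 at 1 day and 9 at 6 months. At 6 months the block and the smaller set of animals cannot be told apart. Over 618 leave-out settings of single members 588 kept direction and side of the threshold, a count that includes members never called. A call was lost in 21 settings, all of 4 lung calls. Timp1 at 1 day kept its call in 5 of 12 fits. At 6 months Adamts1 kept it in 2 of 11, Mmp17 in 8 of 11 and Adamtsl4 in 9 of 11. Depth limits members near 3 counts, such as Mmp7 in air lung and most members in blood.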
